A study of Mus musculus with 12 samples.

Results

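Embryonic stem cells (ESC) were compared with embryonic fibroblasts (MEF) on 6 of the 12 arrays of the series, the 3 whose titles name ESC and the 3 whose titles name MEF. Both groups came from OG2 mice, a line that carries a green fluorescent reporter driven by the Pou5f1 promoter. The ESC were described as a mixture of female and male cells and the MEF as male. The remaining 6 arrays, of induced pluripotent stem (iPS) cells made with 4 or 6 factors, entered the normalization, the detection filter, the choice of probe and the estimate of the spread, but no comparison. The sources used here do not give embryo age, passage, culture medium or feeder layer. Replicates carry the numbers 1 to 3 in each group, with no word on whether they were separate cultures, so p-values measure the spread between these arrays, which may be technical.

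ESC are derived from the inner cell mass of the blastocyst and keep the capacity to form every tissue of the embryo, under a circuit of transcription factors built around Pou5f1, Sox2 and Nanog. MEF are a mixed mesenchymal culture from the embryo's body, in which cells attach to and secrete a fibrous extracellular matrix and keep the positional identity of their site of origin. ESC divide fast, rely on glycolysis and one-carbon metabolism and grow as tight epithelial-like colonies. Which genes separate these states is the question the contrast addresses.

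RNA was amplified into biotin-labelled cRNA and hybridised to Illumina mouse bead arrays. Values below are background-corrected, quantile-normalized log2 intensities, given as levels. Differences are ESC minus MEF on the same log2 scale, ± the standard error (SE) of the fit, so a positive value is higher in ESC and 1 is a 2-fold change. Different probes bind with different strength, so levels are set against each other within a gene only. A gene was tested when its probe was detected on all 3 arrays of at least 1 of the 4 groups, which left 10096 genes. Where no array of a group detected a gene, its fold has only a lower limit, written "at least". In bulk RNA, fewer cells of a type and less RNA per cell cannot be told apart. The mean raw intensity ran from 139 to 195 over the 6 arrays and 14107 to 16589 probes of 45281 were detected on each. Arrays of a group correlated at 0.990 to 0.995 over the 10096 genes, and ESC with MEF arrays at 0.699 to 0.710.

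The labelled cell types were checked against defining markers. All 7 markers of pluripotent cells were detected on every ESC array, and in MEF only Pou5f1 was, at 4.58 ± 0.08 against 10.34 ± 0.13 in ESC (SD, n = 3). All 8 fibroblast markers were detected on every MEF array and none on all 3 ESC arrays. All 8 measured macrophage markers were also detected on every MEF array, with a summed log2 level of 10.07 to 10.51 against 7.17 to 7.24 in ESC, where 7 of the 8 were undetected. Lyz2, at a mean of 9.61 in MEF, makes up most of the MEF sum, and the other markers were dimmer, down to 4.78. The ESC sum adds values near the floor. The part of macrophages in the differences below was not tested. Of 6 markers of skeletal and smooth muscle, 4 were tested, with a summed level of 8.07 to 8.20 in ESC and 13.96 to 14.09 in MEF. Acta2, described below, makes up most of the latter, and Myh11, the smooth muscle myosin, was at 5.99 ± 0.18 in MEF and undetected in ESC. Des, at 6.62 in ESC and 6.34 in MEF, was not called, and the skeletal muscle factors Myog and Myod1 did not pass the filter. Of the nerve and glia markers, Nes was at 4.84 ± 0.35 in ESC and 4.82 ± 0.20 in MEF, and Sox10, of glia, was at 6.33 ± 0.06 in MEF and undetected in ESC. Of 3 endothelial markers tested, Pecam1, which stem cells also carry, was at 5.95 ± 0.25 in ESC and undetected in MEF. Kdr, at 4.44 in ESC and 4.57 in MEF, and Tek, at 4.94 and 4.58, were not called. No marker of fat cells or red cells passed the filter. The part of these cell types in the differences was not tested. The 2 primitive endoderm markers tested went opposite ways, with Amn at 7.72 in ESC and 4.40 in MEF, and Gata6 at 6.13 and 7.91. The 2 trophectoderm markers tested had a summed level of 5.27 to 5.86 in ESC and 5.12 to 5.23 in MEF. Otx2, a factor of early stem cell differentiation, was at 7.73 ± 0.24 in ESC and undetected in MEF. Fgf5, the other such marker tested, was lower in ESC, at 4.41 against 4.80 in MEF.

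Some values of sex-linked genes went against the labels, as seen in a pair of genes chosen after their values were seen. Xist, the RNA that coats the inactive X chromosome and is a sign of female cells, was at 7.58, 7.97 and 8.03 on the MEF arrays labelled male and at 4.12, 4.16 and 4.23 on the ESC arrays, where it was undetected. Eif2s3y, a Y-linked translation factor, was at 5.69, 5.74 and 5.87 in MEF and undetected in ESC at 4.09, 4.18 and 4.26. On the 6 iPS arrays, labelled male, Eif2s3y lay between 7.19 and 7.80 and Xist between 4.11 and 4.24. The MEF arrays thus carried RNA of both genes, and the ESC arrays detectable RNA of neither. Against the labels stood Xist in MEF and the lack of Eif2s3y in ESC, described as partly male. Eif2s3y in MEF went with the male label. Undetected Xist in ESC is not counted against theirs, because Xist marks an inactive X and its absence does not show sex. The MEF arrays are called by their title below. No result that follows rests on these genes, and the part of sex in the other differences was not tested.

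Of the 10096 genes, 7728 passed an adjusted p of 0.05 (limma, Benjamini-Hochberg over all genes tested), which is 76.5% of them. Over single kept probes the share was 70.8%. A call alone therefore says little here, and lists are read by a stricter count that also asks for a difference of at least 2-fold. Without it, 40.3% of genes were called higher and 36.3% lower. With it, the count was 1995 genes higher in ESC (19.8%) and 1900 lower (18.8%). The median difference of all genes was 0.08. The arrays of the groups did not overlap in 7774 genes (77%), so a gene whose groups lie apart is the common case here. A gene detected in 1 group alone passed the detection filter through that group and could only be higher there, so counts and medians over the tested members of a list describe them and support no direction. Every gene written as higher or lower below passed the test, with an adjusted p of at most 0.0434. Of the called genes named, 10 lost the call when each array was instead scaled to the median of all its probes: Ccnd3, Col9a3, Dusp6, Klf4, Mdk, Myc, Pdk3, Pdlim1, Pfkm and Tead2. Ccnd3, Mdk, Myc, Pdk3, Tmsb10 and Tpm3 lost it under at least 1 other alternative. That scaling moved the median of all genes to -0.14 and the share of called genes higher in ESC from 52.6% to 37.9%, and scaling to the median of the kept probes moved them to 0.26 and 60.3%. The kept probe with the highest mean stands for each gene. Of the 94 genes named here as at least 2-fold apart that had more than 1 kept probe, 49 had another probe whose difference was less than 50% of the one given, and 20 had one within 0.5 of 0, among them Cdh1 (0.22), Slc39a4 (0.02), Gcnt2 (0.15) and Pfas (0.11). Not all of these genes are marked below, so a single difference below stands for its probe only.

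The gap was not symmetric in size. At 2-fold the numbers in each direction were near equal, though 1334 were higher and 2421 lower with arrays scaled to the median of all probes and 2093 higher and 1714 lower with scaling to that of the kept probes. Where detection at p under 0.01 was required on all 6 arrays they were 1384 and 1034. At 16-fold 79 genes were higher and 202 lower in ESC, and at 64-fold 9 were higher and 53 lower. With undetected genes held at their lower limit the 64-fold counts were 9 and 49. By detection, 510 genes were found on all ESC and no MEF array and 690 on all MEF and no ESC array. These counts depend on how many probes each array detects, which was 14107 on ESC array 2 and 15843 to 16589 on the MEF arrays. The part of this in the counts was not tested. The fold of a gene at the floor of the array is a limit, and the offset of 16 added in processing understates folds of dim genes in both directions. At the other end, 6772 genes were detected on all 6 arrays, and for 1683 genes (16.7%) the 95% interval of the difference lay within 0.5 of 0. Of the latter, 1048 were detected on all 6 arrays by the probe used, and the others include genes near the floor, where the offset pulls differences toward 0. The brightest of these coded for ribosomal proteins, the elongation factor Eef1a1 (-0.12 ± 0.10) and the tubulin Tubb5 (-0.02 ± 0.10). Rplp1 was the brightest probe on each array, and quantile normalization sets such a probe to one value, so its difference of 0 is fixed by that step.

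**Figure D1:**
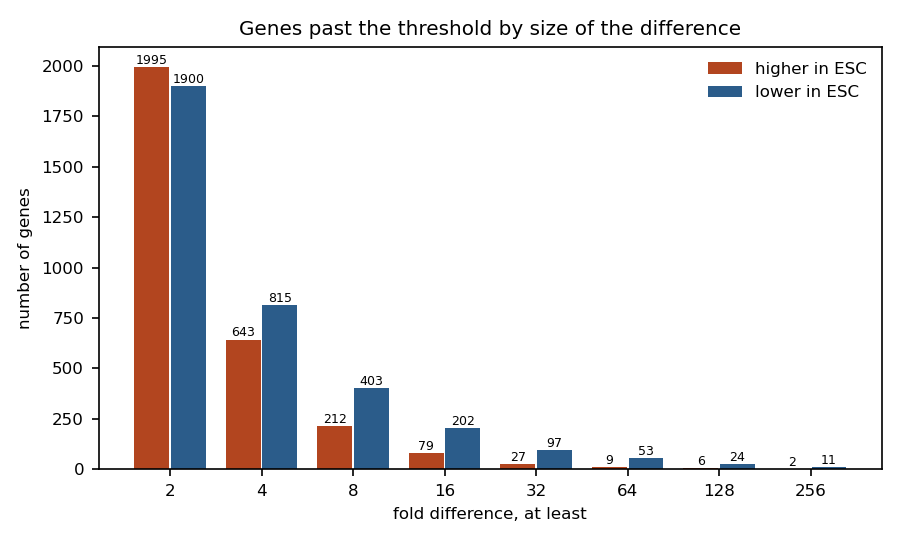
Number of genes (vertical axis) at or beyond each fold difference (horizontal axis) among genes with an adjusted p under 0.05, with undetected genes at their measured values; bars start at 0 and carry no error because each is a count from one fit. The bars are near equal at 2-fold (1995 higher and 1900 lower in ESC) with the scaling used here (1334 and 2421 with arrays scaled to the median of all probes) and differ at 16-fold (79 higher and 202 lower).

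Transcription factors separated the cell types in both directions. Of 148 factors tested over 7 lists, 23 were at least 2-fold higher in ESC and 74 at least 2-fold lower, with a median of -1.02. The pluripotency network held 26 tested genes, of which 20 were at least 2-fold higher and 0 lower, with a median of 2.84. These lists include genes used to define the cell types, so their direction is a description. Sall4, a zinc finger partner of Pou5f1 and Nanog, was at least 50.2-fold higher in ESC. Esrrb, an orphan nuclear receptor of the naive state, was at 11.05, 11.10 and 11.31 on the ESC arrays and at 4.18, 4.28 and 4.20 on the MEF arrays. All ESC values were above all MEF values and MEF had no detected value, so Esrrb was at least 107-fold higher. Tfcp2l1, another factor of that state, was at least 31-fold higher. Dppa4, a chromatin protein of early embryos, was at least 179.6-fold higher. Klf4, one of the reprogramming factors, differed by only 0.66 ± 0.15, and Zfx, a zinc finger factor of stem cell self-renewal, by -0.22 ± 0.11, with an adjusted p of 0.0771.

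Hox genes, which record position along the body axis, were detected mainly in MEF. Of 38 with a probe, 18 had one detected on all MEF arrays and 1 on all ESC arrays. Among the 18 tested, all but Hoxa13 passed the filter through MEF and not ESC, which largely fixes their direction. Of these 18, 17 were lower in ESC, 11 of them at least 2-fold. Their median was -1.78, and -0.19 over all Hox genes with no detection filter. Hoxc6 was at 10.21, 10.04 and 10.24 on the MEF arrays and at 4.13, 4.13 and 4.17 on the ESC arrays. The groups did not overlap and Hoxc6 was undetected in ESC, which makes it at least 51.9-fold lower there. Hoxc9 differed by -3.52 ± 0.19, Hoxb7 by -3.38 ± 0.13 and Hoxa7 by -2.76 ± 0.16. These belong to the middle and rear groups of the clusters. Hoxd4 differed by -0.87 ± 0.11, and the one member not called, Hoxa13, by 0.08 ± 0.18 with an adjusted p of 0.685. The other 20 Hox genes with a probe did not pass the detection filter.

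Other developmental factors of mesenchyme and limb were, like the Hox genes, detected mainly in MEF. Of 38 homeobox and T-box factors with a probe, 19 had one detected on all MEF arrays and 5 on all ESC arrays. The direction of many was thus fixed by the filter. Of the 21 tested, 16 were at least 2-fold lower in ESC and 0 higher. Their median was -1.58, and -0.66 over the list with no detection filter. Tshz1, a zinc finger homeobox factor, differed by -4.28 ± 0.13. Prrx1, a homeobox factor of limb mesenchyme, differed by -4.46 ± 0.14 and Meis1, a Hox cofactor, by -3.93 ± 0.12. Of 42 bHLH, zinc finger and forkhead factors of mesenchyme tested, 27 were at least 2-fold lower and 0 higher. The same limit holds for them, as 42 of the list were detected on all MEF arrays and 14 on all ESC arrays. Their median was -1.41, and -0.99 with no detection filter. Twist1 and Twist2, bHLH factors of mesenchyme, differed by -4.10 ± 0.13 and -4.50 ± 0.11. Sox9, the cartilage factor, was at least 24.2-fold lower, and Osr2, a zinc finger factor of limb and palate, differed by -3.87 ± 0.13. The Krueppel-like factors divided, with Klf5 at 1.92 ± 0.16 and Klf2 at 1.47 ± 0.12 against Klf6 at -2.39 ± 0.14 and Klf7 at -1.46 ± 0.13. Sox2 (2.44 ± 0.16) and Sox21 (1.83 ± 0.11) were higher in ESC, whereas Sox4 (-2.39 ± 0.13) was lower.

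Immediate early and Hippo genes leaned toward MEF, with exceptions. Of 15 immediate early and AP-1 genes, 12 were called lower in ESC and 2 higher. Of these, 10 were at least 2-fold lower in ESC and 1 higher, with a median of -1.46. Fosl2, an AP-1 subunit, was at 8.76, 8.45 and 8.69 on the MEF arrays and at 4.16, 4.16 and 4.35 on the ESC arrays. All MEF values exceeded all ESC values, and the gene was undetected in ESC. Fos differed by -3.35 ± 0.19, Egr1, an immediate early zinc finger factor, by -2.70 ± 0.16, and Jun was at least 8.21-fold lower. The exception at 2-fold, named after its value was seen, was Cebpd, at 1.39 ± 0.10. Jund, the most constitutive AP-1 member, was not called (-0.27 ± 0.18, adjusted p 0.183). Of 15 Hippo pathway effectors and targets, the calls were 11 lower and 3 higher. At 2-fold the counts were 9 lower and 0 higher. The targets Ccn2 (-3.40 ± 0.12) and Ccn1 (-2.92 ± 0.17), both matricellular proteins, and Ankrd1, a muscle ankyrin protein (-2.53 ± 0.12), all moved with Axl, a receptor kinase (-6.10 ± 0.10). The effector Yap1 itself differed by only -0.46 ± 0.15. Among its DNA-binding partners Tead1 was lower (-1.88 ± 0.18), Tead2 slightly higher (0.34 ± 0.10) and Tead4 undetected in MEF.

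Nuclear receptors and the large Zfp family showed no common direction. Of 16 receptors tested, 4 were at least 2-fold higher and 2 lower, near the background of 19.8% and 18.8%. Those higher included Nr6a1, the germ cell nuclear factor (3.36 ± 0.14), and Nr5a2, an activator of Pou5f1 (2.97 ± 0.19). Rora, a receptor with roles in the circadian clock, was lower (-1.43 ± 0.11). Of 196 Zfp genes tested, 21 were at least 2-fold higher and 22 lower, with a median of 0.03. Its extremes were Zfp42, the classical stem cell marker Rex1 (at least 26.2-fold higher), and Zfp521, a cofactor of mesenchymal progenitors (at least 22-fold lower).

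The promoters below show the letters upstream of 3 of these genes and of Myl9, a myosin light chain described with the actin genes. They were chosen because a known class of factor motif lies in the window, and are given 5′ to 3′ on the gene's own strand from RefSeq GRCm38.p6, ending at or before the transcription start. Capitals mark the motif. Nanog carries the octamer core bound by Pou5f1 (ATGCAAA, either strand), 75 bases upstream, next to the letters of a Sox site. Myl9 carries a CArG box, the site of serum response factor, and Ankrd1 and Ccn1 carry the TEAD core GGAATG on either strand.
Nanog, chr6:122707369-122707488, + strand: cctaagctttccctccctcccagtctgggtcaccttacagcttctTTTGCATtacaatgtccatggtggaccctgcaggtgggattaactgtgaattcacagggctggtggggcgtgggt
Myl9, chr2:156775264-156775363, + strand: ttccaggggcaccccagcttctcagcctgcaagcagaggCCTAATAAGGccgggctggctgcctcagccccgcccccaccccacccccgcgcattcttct
Ankrd1, chr19:36119945-36120074, - strand: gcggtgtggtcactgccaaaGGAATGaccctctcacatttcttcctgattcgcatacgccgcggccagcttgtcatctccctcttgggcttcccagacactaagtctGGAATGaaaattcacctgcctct
Ccn1, chr3:145649986-145650115, - strand: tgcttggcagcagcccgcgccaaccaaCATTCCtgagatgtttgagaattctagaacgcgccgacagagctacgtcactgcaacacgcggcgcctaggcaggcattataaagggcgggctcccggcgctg
A match is only a run of letters. In 250 upstream bases, the octamer core stood in 3.08% of the 8143 tested genes with a promoter entry and in 4.06% of all 27025 promoters. The TEAD core stood in 10.7% and 12.6% and the CArG box in 1.30% and 1.40%. No motif of 7 searched on both strands was counted as a site. Of genes detected only in ESC, 389 of 510 had a promoter entry, and of genes detected only in MEF, 504 of 690. Both sets had fewer CpG pairs than genes detected on all 6 arrays, with medians of 9, 11 and 17 in the window. Windows with under 5 CpG made up 26.2%, 24.4% and 5.94% of them, and TATAAA stood in 10.5%, 12.5% and 5.87%. The sets detected in 1 cell type were thus nearer to each other than to the shared set, as a description without a test. Over the tested genes with a promoter entry the median was 16, with 10.14% under 5 CpG and TATAAA in 6.717%. Over all 27025 promoters these values were 6, 44.52% and 12.97%. On each measure the sets detected in 1 cell type lay between the shared set and all promoters.

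**Figure D2:**
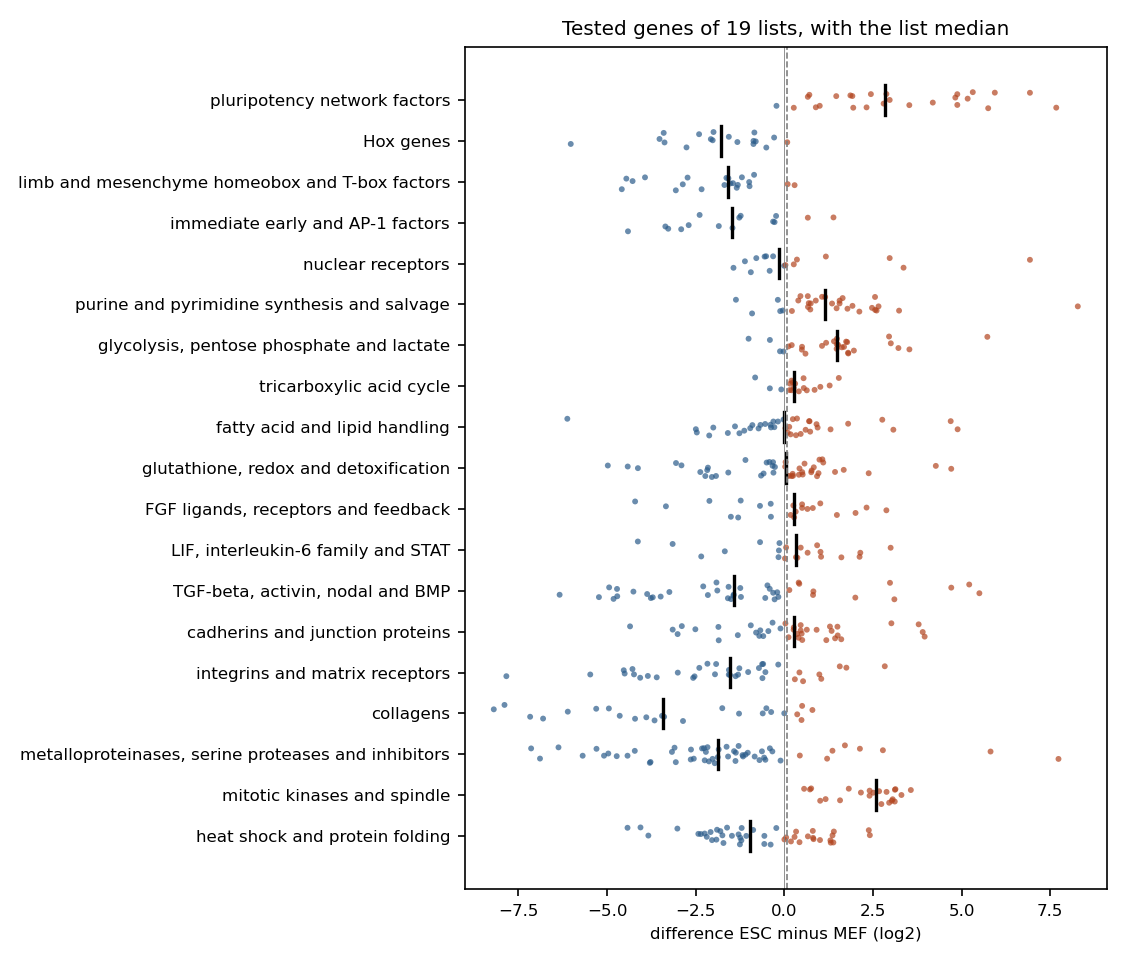
Difference ESC minus MEF (log2, horizontal axis) of each tested gene in 19 of the lists, 1 point per gene and a bar at the list's median; the dashed line is the median of all 10096 genes (0.08). Hox genes and collagens lie to the left and the pluripotency network and mitotic genes to the right, whereas lipid and redox genes spread to both sides.

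Metabolic genes leaned toward ESC in the pathways that feed nucleotide synthesis and glycolysis. Of 263 tested over 9 lists, 77 were at least 2-fold higher in ESC and 47 lower, with a median of 0.31. Purine and pyrimidine synthesis and salvage held 31 genes, of which 17 were at least 2-fold higher and 1 lower, with a median of 1.15. Upp1, uridine phosphorylase, was at 12.29, 12.61 and 12.67 on the ESC arrays and at 4.20, 4.27 and 4.27 on the MEF arrays. The groups did not overlap, Upp1 was undetected in MEF, and the difference was at least 277-fold. Rrm2, the ribonucleotide reductase subunit that supplies deoxynucleotides, differed by 3.24 ± 0.13. Pfas and Ppat, enzymes of purine synthesis, differed by 2.66 ± 0.12 and 2.56 ± 0.16, and Dhodh, the mitochondrial enzyme of pyrimidine synthesis, by 2.56 ± 0.13. Another probe of Pfas lay near 0.

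Serine, glycine and one-carbon enzymes went the same way, with 10 of 19 at least 2-fold higher and 1 lower. Gldc, the glycine cleavage decarboxylase, was at 11.16, 11.13 and 11.33 in ESC and at 4.38, 4.39 and 4.26 in MEF. No MEF array detected it, which gives at least 111-fold. Shmt1, which transfers a carbon from serine to folate, differed by 2.98 ± 0.10 and Mthfd1, a folate enzyme, by 2.86 ± 0.12. Aldh1l2, a mitochondrial formyl-folate dehydrogenase, was the one member at least 2-fold lower (-4.72 ± 0.12). Mthfd2, the mitochondrial enzyme often high in dividing cells, was not called (0.08 ± 0.10, adjusted p 0.491).

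Of 28 genes of glycolysis, the pentose phosphate path and lactate, 19 were at least 2-fold higher in ESC and 1 lower, with a median of 1.48. The glucose transporter Slc2a3 was at 11.52, 11.69 and 11.54 on the ESC arrays and at 6.08, 5.92 and 5.56 on the MEF arrays. It was detected in both and all ESC values were above all MEF values, a difference of 5.73 ± 0.13. Slc2a1, the general glucose transporter, differed by 3.22 ± 0.16, the phosphofructokinases Pfkl by 3.00 ± 0.13 and Pfkm by 0.60 ± 0.10, and lactate dehydrogenase Ldha by 1.48 ± 0.16. Pdk1, which inhibits pyruvate dehydrogenase, differed by 3.53 ± 0.11, and its relatives Pdk4 by 1.06 ± 0.13 and Pdk3 by 0.50 ± 0.16. The tricarboxylic acid cycle moved less, with 3 of 18 genes at least 2-fold higher, 0 lower and a median of 0.29. Mdh2, malate dehydrogenase, was among the higher (1.28 ± 0.14), while Idh1, a cytosolic isocitrate dehydrogenase, was lower (-0.82 ± 0.13). Of 40 genes named as complex I subunits or assembly factors, 29 were called higher, but only 4 at least 2-fold.

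Lipid, cholesterol and redox genes were split. Of 40 lipid genes, 6 were at least 2-fold higher and 9 lower, with a median of 0.01. Fabp3, a fatty acid carrier, was at 11.50, 11.67 and 11.59 in ESC and 6.66, 6.82 and 6.62 in MEF. Cav1, the coat protein of caveolae, was on the other side by -6.12 ± 0.14, and in both genes the groups did not overlap. Apoc1, an apolipoprotein, was at least 21.8-fold higher in ESC. Of 22 cholesterol genes, 7 were at least 2-fold higher and 2 lower, with the synthesis enzymes Mvd (2.18 ± 0.12) and Lss (1.46 ± 0.14) against the lysosomal lipase Lipa (-3.14 ± 0.15). Of 45 glutathione, redox and detoxification genes, 7 were at least 2-fold higher and 13 lower. The glutathione transferase Gsta4 was at 10.72, 10.93 and 10.57 in ESC and 6.03, 6.08 and 5.99 in MEF, and the peroxidase Gpx8 of the endoplasmic reticulum at 6.59, 6.63 and 6.20 and 11.52, 11.45 and 11.39. These genes moved in opposite directions with no overlap, by 4.71 ± 0.11 and -4.98 ± 0.14. Gstp2, at 4.27 ± 0.14, has a near-identical copy and its probe may read both. Cyp1b1, a cytochrome of xenobiotic and steroid metabolism, was at least 14.1-fold lower.

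Amino acid genes held members on both sides, and glycan genes leaned toward MEF. The cationic amino acid transporter Slc7a3 was higher in ESC (2.60 ± 0.11) and its paralog Slc7a2 lower (-0.92 ± 0.13). Odc1, the first enzyme of polyamine synthesis, was higher (1.92 ± 0.11), and the ornithine aminotransferase Oat, which uses the same substrate, lower (-2.54 ± 0.16). Of 29 genes of glycan and hyaluronan synthesis, 15 were at least 2-fold lower in ESC and 1 higher. The exception was Gcnt2, which adds branches to lactosamine chains, at 2.60 ± 0.13, though another of its probes lay near 0. Hs6st2, a heparan sulfate sulfotransferase, was at least 12.2-fold lower. The zinc transporter Slc39a4 was among the highest of 186 solute carriers (4.62 ± 0.11), and the iron exporter Slc40a1 the lowest called (-3.78 ± 0.11). Another probe of Slc39a4 lay near 0.

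**Figure D3:**
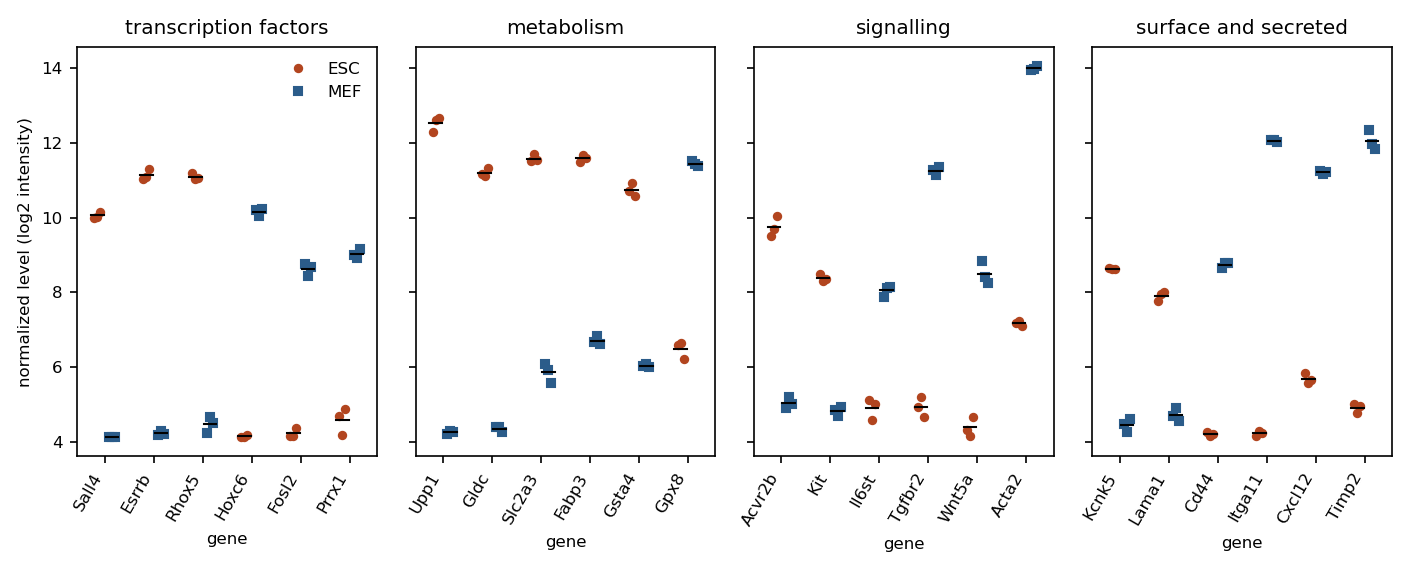
Normalized log2 level (vertical axis) of 24 genes of 4 classes on each of the 3 ESC arrays (circles) and 3 MEF arrays (squares), with a bar at each group's mean. In each of the 24 genes the values of the groups lie apart and the spread within a group is small beside the gap, as groups lie apart in 77% of all genes tested; undetected genes sit near 4, the floor of the scale.

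Signalling genes leaned toward MEF. Of 279 tested over 9 lists, 26 were at least 2-fold higher in ESC and 141 lower, with a median of -1.06. Growth factor receptor kinases and their ligands held 44 tested genes, 30 of them at least 2-fold lower in ESC. Igf2, an imprinted growth factor, differed by -9.01 ± 0.16, and Gas6, the ligand of Axl, by -6.15 ± 0.11. Of the 6 tested insulin-like growth factor binding proteins, 5 were lower, from -8.08 ± 0.15 in Igfbp5 to -5.03 ± 0.11 in Igfbp4 and at least 8.94-fold in Igfbp6, the last pair named after their values were seen. Igfbp2 was not called (-0.26 ± 0.15, adjusted p 0.116). The one member at least 2-fold higher, named after its value was seen, was Kit, the stem cell factor receptor. Its probe was at 8.50, 8.31 and 8.37 in ESC and 4.85, 4.68 and 4.92 in MEF, with no overlap, but the gene's other kept probe differed by only 0.02.

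FGF genes, which drive ESC out of self-renewal when active, were mixed. Of 22 tested, 5 were at least 2-fold higher and 6 lower. Etv4 and Etv5, transcription factors induced by FGF signalling, were higher (2.88 ± 0.11 and 2.32 ± 0.11), as was the feedback phosphatase Dusp4 (2.01 ± 0.15). The receptor Fgfr2 was lower (-3.34 ± 0.15) and so was Fgfr1 (-1.23 ± 0.13). Fgf7, a ligand that mesenchyme sends to epithelium, was at least 15.4-fold lower. Dusp6, another feedback phosphatase, differed by 0.50 ± 0.12.

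The LIF path, which maintains mouse ESC in culture, held genes on both sides. Of 21 genes tested, 6 were at least 2-fold higher and 4 lower. The shared receptor subunit Il6st was at 5.12, 4.58 and 5.01 in ESC and at 7.88, 8.12 and 8.15 in MEF. Every MEF value was above every ESC value, a difference of -3.15 ± 0.16, and the oncostatin receptor Osmr was also lower (-4.13 ± 0.13). Socs3, the feedback inhibitor induced by STAT3, was higher (2.12 ± 0.13), as was the kinase Pim3 (3.00 ± 0.13). Stat3 itself was lower (-1.68 ± 0.18, named after its value was seen). The probes of Jak1 disagreed, at 2.14 ± 0.12 and -0.64, so no direction is given for it.

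TGF-beta family genes leaned toward MEF, with genes of nodal signalling among the exceptions. Of 41 genes tested, 6 were at least 2-fold higher in ESC and 23 lower, with a median of -1.43. Nodal, a ligand of the early embryo, was at least 30.7-fold higher, and Gdf3, a related ligand, at least 39.5-fold higher. Acvr2b, an activin and nodal receptor named after its value was seen, was at 9.50, 9.71 and 10.04 in ESC and 4.91, 5.20 and 5.01 in MEF. The receptor Tgfbr2 lay on the other side, at 4.92, 5.19 and 4.66 in ESC and 11.28, 11.14 and 11.36 in MEF. Neither receptor's groups overlapped, and the differences were 4.71 ± 0.13 and -6.34 ± 0.13, though another probe of Tgfbr2 differed by -0.86. Tgfb3, a ligand, was at least 30.6-fold lower, and Fstl1, a secreted modulator, differed by -4.94 ± 0.13. Lefty1 and Lefty2, inhibitors of nodal also named after their values were seen, differed by 2.98 ± 0.12 and 3.10 ± 0.12.

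WNT, Notch and hedgehog genes leaned toward MEF with named exceptions. Of 36 WNT genes, 14 were at least 2-fold lower and 3 higher. Wnt5a, a ligand of non-canonical signalling, was at 4.32, 4.16 and 4.66 in ESC and 8.84, 8.42 and 8.25 in MEF with no overlap. The antagonists Dkk3 and Sfrp1 differed by -5.46 ± 0.13 and -3.60 ± 0.11. Among the Frizzled receptors, Fzd2 was lower (-4.20 ± 0.13) whereas Fzd5 and Fzd10 were higher (1.15 ± 0.10 and 1.81 ± 0.11), and Fzd7 was not called (-0.19 ± 0.11). Dlk1, a non-canonical Notch ligand, differed by -7.50 ± 0.12, and Notch4 was higher in ESC (2.94 ± 0.13). In the hedgehog path the receptor Ptch1 was higher (1.62 ± 0.12) and the transducer Smo and the factor Gli3 lower (-1.96 ± 0.10 and -2.72 ± 0.12). The retinoid binding proteins Crabp1 and Crabp2 were both lower (-2.44 ± 0.14 and -2.35 ± 0.12).

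Genes of actin filaments were among those lower in ESC. Acta2, smooth muscle actin, was at 7.19, 7.24 and 7.09 in ESC and 13.95, 13.97 and 14.07 in MEF. The groups were far apart, by -6.83 ± 0.13. Myl9, whose promoter is shown above, differed by -5.79 ± 0.13, and the kinase that phosphorylates it, Mylk, was at least 59.2-fold lower. Among the tropomyosins, which line actin filaments, Tpm1 differed by -4.34 ± 0.14, Tpm4 by -2.76 ± 0.17 and Tpm3 by -0.45 ± 0.19. Csrp2 and Pdlim1, LIM proteins on actin, were higher in ESC (0.86 ± 0.11 and 0.58 ± 0.12). The smooth muscle marker Myh11 moved with Acta2, by -1.75 ± 0.12, and its part in these differences was not tested.

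Genes of G protein signalling and phosphodiesterases, a list that also holds receptors and kinases, leaned toward MEF, with 18 of 34 at least 2-fold lower and 1 higher. Gnas, the stimulatory alpha subunit, differed by -3.85 ± 0.16, and 3 further probes of the gene by -2.31 to -0.27. The endothelin receptor Ednrb differed by -3.99 ± 0.10, the lysophosphatidic acid receptor Lpar4 by -4.19 ± 0.16 and the thrombin receptor F2r by -3.52 ± 0.12. MAP kinases and their upstream kinases were taken by gene symbol, which also catches genes that are not kinases. Of 29 tested, 6 were at least 2-fold higher (20.7%, beside 19.8% of all genes) and 1 lower (3.45%, beside 18.8%). The highest was the blood-cell kinase Map4k1 (at least 8.33-fold).

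Surface proteins leaned toward MEF, except for junction genes, which showed no clear lean. Of 193 tested over 6 lists, 30 were at least 2-fold higher in ESC and 83 lower, with a median of -0.68. Cadherins and junction proteins were the one surface list with more genes at least 2-fold higher (11) than lower (8), of 39. These shares, 28.2% and 20.5%, stand beside 19.8% and 18.8% of all genes. The list's median lay 0.19 above that of all genes, and on the other side of it under 1 setting. E-cadherin, Cdh1, the main adhesion molecule of epithelia, differed by 3.79 ± 0.11, though another of its probes lay near 0. The claudins Cldn6 and Cldn4, which seal tight junctions, were each higher in ESC, by at least 14-fold and at least 12.9-fold, and Dsg2, a desmosomal cadherin, differed by 3.02 ± 0.15. On the other side stood Cldn11 (at least 17.3-fold lower), the gap junction protein Gjb2 (-3.15 ± 0.13) and P-cadherin, Cdh3 (-1.85 ± 0.16).

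Contacts with matrix ran toward MEF. Of 37 integrins and matrix receptors, 23 were at least 2-fold lower in ESC and 4 higher. Itga11, a collagen-binding integrin subunit, was at 4.15, 4.27 and 4.24 in ESC and 12.07, 12.09 and 12.03 in MEF. Cd44, the hyaluronan receptor, was at 4.27, 4.16 and 4.21 in ESC and 8.65, 8.78 and 8.79 in MEF. In both the groups did not overlap, and a second probe of each gene was detected in ESC. The members higher in ESC, named after their values were seen, included Itgae, the partner that binds E-cadherin (2.83 ± 0.11), and Itga3, a laminin receptor subunit (1.75 ± 0.15). Of 40 CD antigens and stem or stromal markers, 5 were at least 2-fold higher and 16 lower. Vcam1, a leukocyte adhesion molecule, was at least 42.7-fold lower and Ncam1, the neural one, differed by -4.08 ± 0.17. Higher in ESC were Dpp4, a surface peptidase (3.38 ± 0.11), and, named after their values were seen, Icam1, a leukocyte ligand (2.27 ± 0.13), and the alkaline phosphatase Alpl (2.95 ± 0.11), a classical stain for pluripotent cells.

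Guidance receptors, antigen presentation and channels completed the surface. Of 33 Eph, ephrin and axon guidance genes, 19 were at least 2-fold lower and 4 higher, with a median of -1.71. The guidance ligand Slit2 differed by -6.19 ± 0.15 and the receptor Nrp1 was at least 37.1-fold lower, while Sema4a, named after its value was seen, was higher (3.84 ± 0.14). Of 19 genes of MHC class I and antigen presentation, 7 were at least 2-fold lower and 2 higher. B2m, the light chain of class I, differed by -5.19 ± 0.13, the peptide transporter Tap2 by -2.60 ± 0.18 and the immunoproteasome subunit Psmb10 by 1.61 ± 0.13. H2-D1 differed by -2.46 ± 0.12, with near-identical class I copies that its probe may also read. The potassium channel Kcnk5 was at 8.65, 8.61 and 8.64 in ESC and 4.47, 4.27 and 4.61 in MEF. Its groups did not overlap, and the difference was 4.19 ± 0.10. The calcium channel Cacna1g lay on the other side (-3.08 ± 0.14).

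Secreted proteins had the median farthest from 0 of the 5 classes, at -2.00 over 205 genes tested, 130 of them at least 2-fold lower in ESC and 14 higher. Of those with a probe, 74 were detected on all MEF and no ESC array and 5 the reverse. Such genes passed the filter through 1 group, so the ranking of the classes is a description only. Of 24 collagens, 16 were at least 2-fold lower and 0 higher, with a median of -3.42. Col5a1, a fibril-forming chain, differed by -7.17 ± 0.17. The basement membrane chains Col4a1 and Col4a2 differed by -3.66 ± 0.10 and -4.21 ± 0.16. Col9a3, a chain of cartilage fibrils, was higher in ESC by 0.79 ± 0.16, and Col18a1, the source of endostatin, was not called (0.00 ± 0.13, adjusted p 0.994).

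The rest of the matrix also leaned toward MEF. Of 33 basement membrane, elastic and adhesive matrix genes, 21 were at least 2-fold lower in ESC and 2 higher, and both of the latter were laminin alpha chains. Lama1, the chain of the first embryonic basement membranes, was at 7.75, 7.96 and 8.01 in ESC and 4.68, 4.89 and 4.56 in MEF. Every ESC value was above every MEF value (3.20 ± 0.13), and Lama5 differed by 2.15 ± 0.12. The alpha chain Lama2 was undetected in ESC and near the floor in MEF. The beta chain Lamb2 was lower (-2.00 ± 0.18). The gamma chain Lamc1, shared by most laminins, differed by -0.56 ± 0.12. Of 16 proteoglycans with a probe, 8 had one detected on all MEF arrays, 7 of them on no ESC array, and 1 had one detected on all ESC arrays and no MEF array. These 9 were the ones tested, so the 8 at least 2-fold lower and the 1 higher mainly restate where each was detected. Biglycan, Bgn, differed by -9.18 ± 0.16, and decorin, Dcn, was at least 285-fold lower, both small proteoglycans that bind collagen. Elastin, Eln, was at least 72.9-fold lower and the microfibril protein Mfap4 at least 170.5-fold.

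Proteases and their inhibitors leaned toward MEF. Of 54 tested, 38 were at least 2-fold lower and 7 higher. Timp2, an inhibitor of metalloproteinases, was at 5.02, 4.76 and 4.97 in ESC and 12.35, 11.97 and 11.85 in MEF, and Timp3 differed by -6.37 ± 0.14. The Timp2 values did not overlap. Ctsk, the collagen-degrading cathepsin, was at least 43-fold lower. In ESC the inhibitors Wfdc2 and Spint1, both typical of epithelia, were higher, by at least 190.0-fold for Wfdc2 and at least 49.9-fold for Spint1. Among cathepsins Ctsc was higher (1.36 ± 0.11) and Ctsb lower (-2.63 ± 0.12).

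Of 27 chemokines and cytokines, 12 were at least 2-fold lower in ESC and 2 higher. Cxcl12, a stromal chemokine that retains stem cells in their niche, was at 5.83, 5.58 and 5.66 in ESC and 11.26, 11.17 and 11.21 in MEF, with no overlap. Ccl7 was at least 25.5-fold lower and Cxcl1 at least 11.6-fold, both attractants of leukocytes. Of 19 complement and coagulation genes, 8 were at least 2-fold lower and 1 higher. The complement genes C1qb (at least 6.46-fold lower) and C1qc (at least 3.92-fold lower) are also among the macrophage markers given above. Other secreted growth regulators held 28 genes at least 2-fold lower and 1 higher of 40. Ptn, a heparin-binding growth factor, was at least 658-fold lower, and Mgp, an inhibitor of calcification, at least 342-fold. The probes of Mdk, the relative of Ptn, disagreed in direction, with the main probe at 0.29 ± 0.11.

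Genes of mitosis and of ribosome production leaned toward ESC. All 22 mitotic kinase and spindle genes tested were higher, 19 at least 2-fold, with a median of 2.59. Plk1, a mitotic kinase, was at 10.33, 10.36 and 10.65 in ESC and 6.84, 6.83 and 6.96 in MEF. The groups did not overlap. The difference was 3.57 ± 0.11, and the kinase Aurka differed by 3.30 ± 0.11. Of 27 genes of translation and ribosome biogenesis, the calls were 24 higher and 2 lower. At 2-fold the counts were 17 higher and 1 lower. Rrp9 and Heatr1, which act in ribosomal RNA processing, differed by 2.38 ± 0.12 and 2.19 ± 0.14. Of 74 mitochondrial ribosomal proteins, 36 were at least 2-fold higher and 0 lower, with a median of 0.94. Of 58 genes named as cytosolic ribosomal proteins, 10 were at least 2-fold higher (17.2%, below the 19.8% of all genes), a group that includes Rps6kl1, a kinase-like gene caught by its name, and the rare paralogs Rpl3l and Rps4l.

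Protein folding genes, a list that also holds genes acting on collagen, leaned toward MEF. Of 46 genes, 8 were at least 2-fold higher in ESC and 23 lower. Serpinh1, the collagen chaperone, differed by -4.42 ± 0.10, and Fkbp14, a prolyl isomerase of the endoplasmic reticulum, by -3.02 ± 0.17. Cryab, a small heat shock protein of muscle and lens, differed by -4.06 ± 0.14, while its relative Hspb1 was higher (2.41 ± 0.11). Hspa8 and Hspa9, the constitutive cytosolic and mitochondrial chaperones, were not called (0.00 ± 0.11 and 0.05 ± 0.11, adjusted p 0.979 and 0.682).

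**Figure D4:**
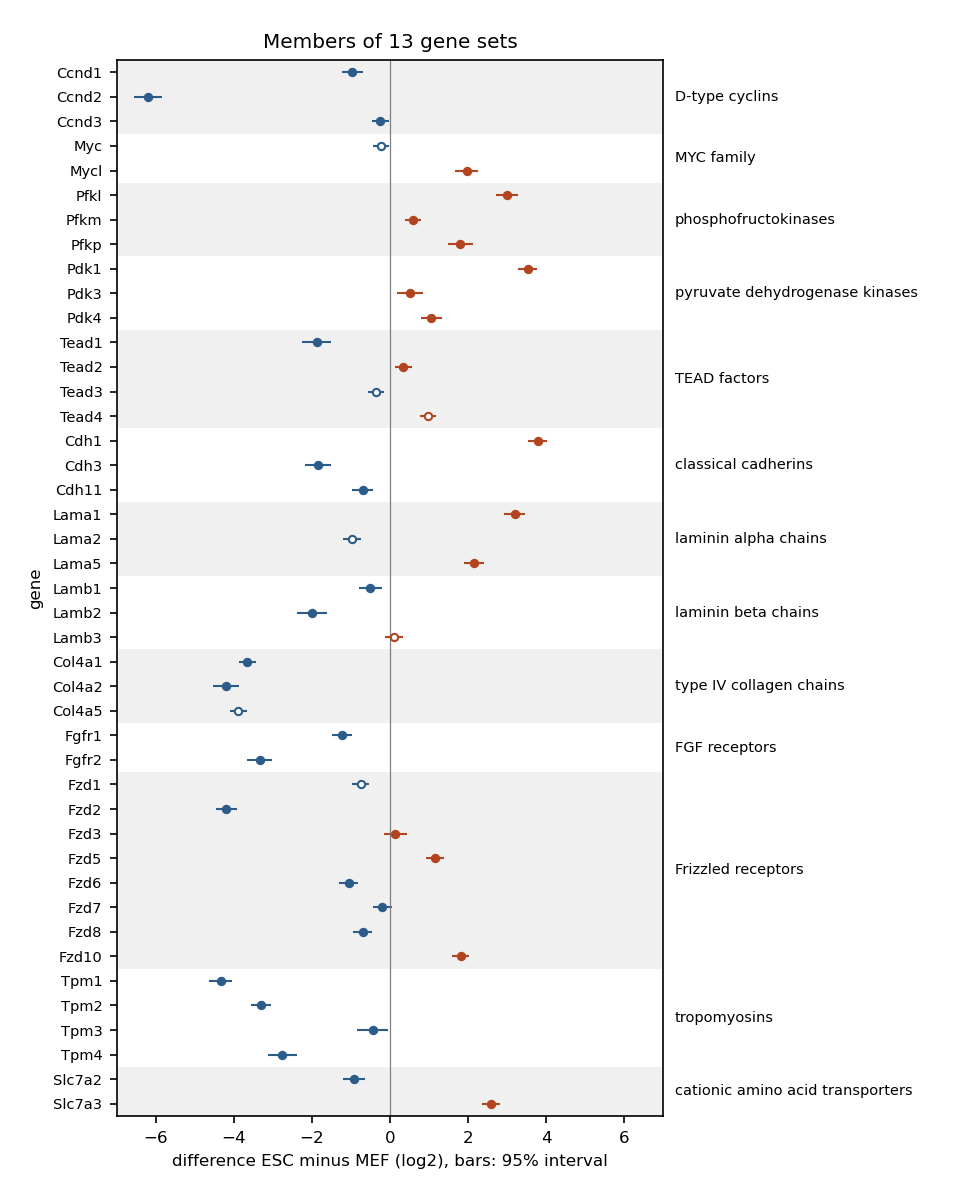
Difference ESC minus MEF (log2, horizontal axis; error bars, 95% interval of the fit) of the tested members of 13 sets of related genes; open points are members undetected in 1 group, plotted at their measured values, which are not exact. Members of a set detected in both groups lie on both sides of 0 in several sets, as in the Frizzled receptors (Fzd5 at 1.15 and Fzd2 at -4.20).

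Members of a gene family did not always change in the same direction. Levels of different genes cannot be set against each other on these arrays, and the offset shrinks the differences of dim probes more than those of bright ones, so the sets are read by direction. Of the D-type cyclins, which start the cell cycle, Ccnd2 (-6.20 ± 0.17), Ccnd1 (-0.97 ± 0.12) and Ccnd3 (-0.25 ± 0.10) were lower in ESC. Of the MYC family, Mycl was higher (1.97 ± 0.14), while Myc was undetected in ESC and dim in MEF, so its difference of -0.23 ± 0.10 has no fold. Ckmt1, the mitochondrial creatine kinase, was at least 9.71-fold higher, and the brain form Ckb differed by 1.15 ± 0.14. The thymosins, which bind actin monomers, were both lower (-1.63 ± 0.19 for Tmsb4x and -0.71 ± 0.13 for Tmsb10, whose call was lost with scaling to the median of kept probes and with the mean of probes), as were the glypicans Gpc1 (-2.57 ± 0.15) and Gpc3 (-2.17 ± 0.10), cell surface heparan sulfate proteins. Ndrg2 was higher (1.36 ± 0.13) and Ndrg3 lower (-0.62 ± 0.14), both of the N-myc downstream regulated family.

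Several of the genes ranked 1 to 30 in each direction have not been described above. Dppa5a, an RNA-binding protein of pluripotent cells, headed those higher in ESC (9.46 ± 0.11), and Lox, which crosslinks collagen and elastin, followed Ptn among those lower (-9.42 ± 0.12). Ooep, an oocyte protein, differed by 7.37 ± 0.11, Fbxo15, an F-box protein of stem cells, by 5.93 ± 0.11 and Thbs2, a matricellular thrombospondin, by -8.32 ± 0.10. Dnmt3l, the cofactor of de novo methylation, differed by 7.71 ± 0.11 and Dnmt3b, a de novo methyltransferase, by 5.46 ± 0.10. Rhox5, an X-linked homeobox gene, was at 11.18, 11.04 and 11.06 in ESC and 4.23, 4.67 and 4.50 in MEF with no overlap. Nup210, a nuclear pore protein, differed by 5.73 ± 0.15 and Grb7, an adaptor of receptor kinases, was at least 37.3-fold higher. Chchd10, a mitochondrial protein (5.06 ± 0.16), and Map7, a microtubule protein (5.04 ± 0.13), were also ranked. Supt16, a histone chaperone subunit, differed by 5.54 ± 0.19, but its other probe by 1.68. Among genes lower in ESC, the imprinted cell cycle inhibitor Cdkn1c differed by -7.25 ± 0.11 and the actin-binding protein Synpo by -6.94 ± 0.15. Lyz1 was at least 225-fold lower, and its probe may also read the near-identical macrophage gene Lyz2.

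Chromosome 8 had the highest median difference of the autosomes. Of its 540 tested genes, 164 were at least 2-fold higher in ESC and 69 lower, and their median was 0.41, which was 0.34 above that of the other autosomes. The other autosomes lay between -0.17 (chromosome 1) and 0.14 (chromosome 17) by the same measure. This is a description over genes of the 6 arrays, with no test.

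**Figure D5:**
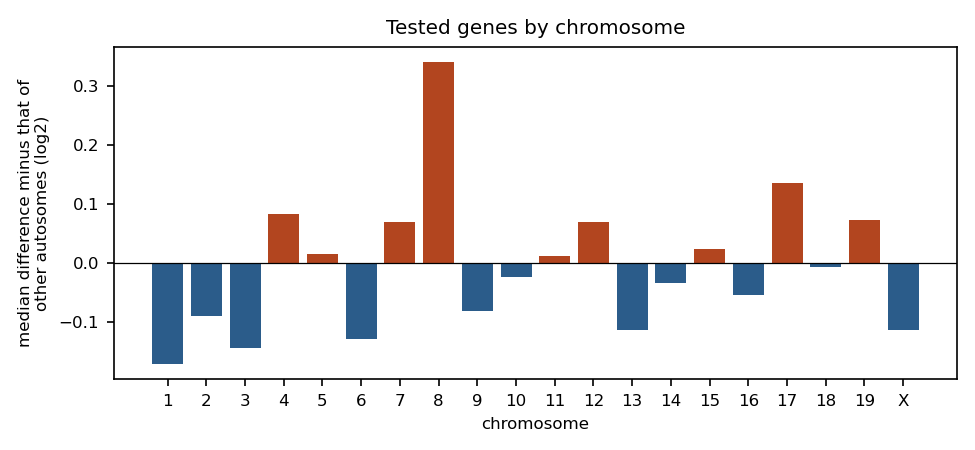
Median difference ESC minus MEF (log2, vertical axis) of the tested genes on each autosome and the X chromosome, minus the median of the other autosomes. Chromosome 8 stands at 0.34 and the other autosomes between -0.17 and 0.14.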

How the data were processed

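Of the 12 arrays, the 3 titled ESC and the 3 titled MEF were compared, grouped by title. Per the file headers, the deposited table holds a raw intensity and a detection p-value for each of 45281 probes, with no normalization stated. The deposited log2 table of the authors holds quantile-like normalized values of the same arrays, and was an alternative only. The submitters' processing notes name BeadStudio 3.2, lumi and RMA without their roles. Gene symbols came from the platform annotation (34885 probes with 1 symbol, 18 with several, 10378 with none), and none changed on update through gene identifiers.

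Intensities were background-corrected from the detection p-values, given an offset of 16, quantile-normalized and log2-transformed (neqc, limma 3.58.1, R 4.3.3). Probes detected at p under 0.05 on all 3 arrays of at least 1 of the 4 groups were kept (17563), and the kept probe of highest mean stood for each of 10096 genes. One linear model with 4 group means over all 12 arrays (lmFit, eBayes) gave ESC minus MEF, with Benjamini-Hochberg adjustment and a threshold of 0.05. It was tested on simulated data. "At least N-fold" sets the brighter mean against, per array, either the dim probe's own value or the lowest detected probe's, whichever is higher. The number of arrays limits the precision.

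The gene lists were chosen with earlier results of these data known, are not independent evidence, and were described by counts and medians without a test. Some results are not reported here. Named genes were taken from the first 30 in each direction, up to 6 of the largest differences and 2 bright genes not at least 2-fold apart in each list, the paralog sets, the 3 extremes of each family, the brightest shared genes and the cell type markers, and not all of these are printed. Others are marked as chosen after their values were seen. Counts of named genes leave out the markers Amn, Gata6, Fgf5, Kdr, Tek and Des. Same-numbered arrays did not deviate together (correlations 0.01 to 0.05). Alternatives changed the background, scaling, filter, probe rule, arrays fitted and replicates.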

Additional observations from a re-analysis of the deposited data

How the results depend on the processing

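The count of called genes was 7728, and fell to 4922 of 6231 when detection at p under 0.01 was required on all 6 arrays, a stricter rule that tests fewer genes. The count at least 2-fold apart was 3895. It was 2159 without background correction and 2418 under that stricter detection rule. With offset 50 it was 2642, and it was 5815 in the authors' log2 table. The share of called genes higher in ESC, 52.6%, lay on the other side of 50% under 1 alternative of 17, the scaling to the median of all probes added after seeing the data (37.9%). The cause was not tested. Leaving out each array in turn gave 7406 to 7517 called genes, 52.2% to 52.8% of them higher, and 3879 to 3944 at least 2-fold apart. Of 41 lists, 12 had a median above that of all genes, and 11 to 14 under the alternatives (12 to 13 leaving out an array). By this measure 37 lists kept their side under every setting that gave a value, and Hox genes and proteoglycans had none under the stricter detection rule. The exceptions were lipid handling, redox, LIF and junction genes. The size of a median is far less firm. Taken relative to all genes it moved by over 1.5 times in 37 lists under at least 1 setting. It ran from 0.98 to 5.23 in the pluripotency network (2.76 as reported), from -4.60 to -0.20 in Hox genes (-1.86), from -5.54 to -1.29 in collagens (-3.50) and from -8.03 to -0.87 in proteoglycans (-4.80). Of the genes named in the text, 1 called gene changed sign. Myc was at 0.18 when arrays were scaled to the median of kept probes, and no longer called, against -0.23. Of the called genes named, 0 to 10 lost the call under an alternative, and leaving out an array ended that of Ccnd3, Mdk, Myc, Pdk3 and Tpm3 in at least 1 fit. Under the stricter detection rule many named genes had no value, and so no call to lose. Of the named genes not called, Hspa8, Hspa9, Mthfd2, Rplp1 and Tubb5 gained a call with scaling to the median of kept probes. Mthfd2 also gained it with the mean of probes. Zfx gained it without background correction, with offset 50 and with scaling to the median of all probes. Eef1a1 gained it under the first of these, Igfbp2 under the last, and Jund when an array was left out. The replicate numbers do not pair the arrays. A fit with the replicate number as a block called 7740 genes, 52.7% of them higher, with 3895 at least 2-fold apart, and changed no call of a gene named here. Probes near the floor limit what can be seen of genes off in 1 cell type, and 3 arrays a group limit the precision.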

Other observations

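Families found by gene symbol showed further contrasts. Of 8 keratins tested, 4 were at least 2-fold higher in ESC and 0 lower. Krt8 and Krt18, the keratin pair of simple epithelia, were higher, by at least 3.10-fold for Krt8 and at least 1.87-fold for Krt18, the latter named after its value was seen, and Krt42 by at least 20.5-fold. Of 56 Rab GTPases and their partners, which direct vesicle traffic, 8 were at least 2-fold higher and 20 lower. Rab25, typical of epithelia, differed by 2.21 ± 0.12, and Rab32, of lysosome-related organelles, by -3.30 ± 0.12. Of 40 genes of proteasome subunits, 14 were at least 2-fold higher and 1 lower, a count that includes Psmc3ip, a recombination factor caught by its name (3.12 ± 0.11). The immunoproteasome subunit Psmb8 was the one lower (at least 4.10-fold). Of 13 tubulins, Tuba1a was the lowest (-2.10 ± 0.17) and Tubg1, which nucleates microtubules, was higher (1.73 ± 0.11). Tubulin copies are near-identical, so their probes may read more than 1 gene.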
